A study of Mus musculus with 20 samples.

Results

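The interferon regulatory factors (IRFs) are transcription factors that share a DNA-binding domain and control interferon genes and interferon-stimulated genes. Here 6 of them, Irf1, Irf2, Irf3, Irf5, Irf7 and Irf8, were followed in the mouse hippocampus. They were listed by gene name, with earlier results of these data known, and are 6 of 39056 genes in the count table. All 6 passed the filter on low counts, as did 16107 genes in all. RNA came from the left hippocampus of 20 female C57BL/6 mice aged 12 to 13 months, with 5 mice in each of 4 groups. WT Non-Tg mice carried neither change (Non-Tg miR34a+/+), KO Non-Tg mice lacked miR-34a in every cell from conception (miR34a-/-), and WT Tg-SwDI and KO Tg-SwDI mice were the same genotypes with the SwDI transgene. That transgene encodes human amyloid precursor protein with the Swedish, Dutch and Iowa mutations, and it is driven by the Thy1 promoter, which acts mainly in neurons. No group received an experimental treatment. By the paper's methods the brains were collected after behavioral tests, a water maze among them, under ketamine and xylazine anesthesia and after perfusion. A mouse is named below by its group and by the number in its library label. The mice were bred as littermates, males were not studied, and the tissue was taken whole, so the values are averages over all of its cells. Such averages cannot tell fewer cells of a type from less RNA per cell.

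Cells that sense foreign or misplaced nucleic acid activate the kinases Tbk1 and Ikbke, which phosphorylate Irf3 and Irf7 and so switch on type I interferon genes. Irf3 is present before stimulation, whereas Irf7 is itself an interferon-stimulated gene and amplifies the response. Irf5 acts downstream of Toll-like receptors and Myd88 on inflammatory cytokine genes, Irf1 activates interferon-gamma and immunoproteasome genes, and Irf2 binds the same sites and mostly holds them down. Irf8 works with the lineage factor PU.1, made by Spi1, and in the brain it is known as a factor that microglia need for their identity and their reactive state.

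The microRNA whose gene was deleted is shown first, because the comparison of KO with WT mice is a comparison of mice without and with it. The mature sequence is from RefSeq (GRCm38.p6, chr4:150068473-150068494, + strand), and the capitals mark the seed, bases 2 to 8, which pairs with messenger RNAs.

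miR-34a-5p: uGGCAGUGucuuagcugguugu

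The complement of that seed, CACTGCC, was searched for in the longest coding transcript of each member in GENCODE M21. It was found in 1 of the 6 transcripts, that of Irf3, at base 958 of the transcript, in the coding sequence of exon 6 of 8 (chr7:45000750-45000756, + strand). In the following stretch the capitals mark the match.

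Irf3: ctgacatgaCACTGCCctggcagc

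No 3'UTR of the 6 transcripts held these letters. Over all 21899 genes with a coding transcript, 12.2% had the match in the 3'UTR and 18.5% in the coding sequence. The match is a description of the letters, and binding was not measured.

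IRF genes are themselves targets of interferon signalling, so the windows from 250 bases before to 50 bases after their RefSeq start sites were searched for 3 motifs on both strands. The motifs were the interferon-stimulated response element read by IRFs (ISRE, the letters GAAA, any 2 bases, GAAA), the gamma-activated site of interferon-gamma signalling (GAS, TTCNNNGAA) and a site of NF-kappaB (GGG, any 2 bases, TTTCC). The 6 members had 8 such windows, since Irf1 and Irf8 have 2 each. ISRE letters stood in 1 of the 8 windows and in 3.44% of 32851 promoter windows of the genome, GAS letters in 3 and 8.3%, and NF-kappaB letters in 1 and 1.63%. The windows of Irf3, Irf5 and Irf7 held none of the 3 motifs, which says only that these letters were not in these windows. The matches are printed with 8 bases on either side, with the motif in capitals and the position of its first base relative to the start site in the text before each. They did not overlap each other. The GAS match of Irf1 lay at -90 (chr11:53769924-53769932).

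Irf1 GAS: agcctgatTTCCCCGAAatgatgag

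In Irf2 an ISRE match lay at -241 (chr8:46739504-46739513), a GAS match at -224 (chr8:46739521-46739529) and an NF-kappaB match at -17 (chr8:46739728-46739737).

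Irf2 ISRE: ggggaagtGAAAATGAAAttgacttt
Irf2 GAS: attgacttTTCCGAGAAatgatgaa
Irf2 NF-kappaB: ggggtgggGGGGATTTCCagcctcgg

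Irf8 had 2 GAS matches in one window, at -171 (chr8:120736187-120736195) and at -153 (chr8:120736205-120736213).

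Irf8 GAS, first: aaagtgatTTCTCGGAAagagagcg
Irf8 GAS, second: gagagcgcTTCAGAGAAggcggatt

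The gene positions are those of GENCODE M21 on mm10. Irf1 lies on chromosome 11 from 53770014 to 53778374 and Irf2 on chromosome 8 from 46739732 to 46847458, both on the + strand. Irf3 lies on chromosome 7 from 44997648 to 45002848 and Irf5 on chromosome 6 from 29526625 to 29541871, also on the + strand. Irf7 lies on the - strand of chromosome 7 from 141262706 to 141266481, and Irf8 on the + strand of chromosome 8 from 120736358 to 120756694. Exons of 4 members overlap a gene of the opposite strand, by 135 bases for Irf1 with Gm17334, 88 for Irf3 with Bcl2l12, 411 for Irf5 with Tnpo3 and 45 for Irf7 with Phrf1. The libraries were stranded, but the strand setting of the counting is not given in the sources used here. Tnpo3 had 1188 to 1489 counts per mouse and Phrf1 922 to 1098, so reads of the overlap could bear on Irf5, which had 71 to 236 counts, and on Irf7, which had 19 to 356. Irf2 and Irf8 share no exonic bases with another gene.

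The libraries held 19549622 to 21066868 counts on genes. As a check of the labels, Thy1 had 684 to 769 CPM (counts scaled to a common library total) without the transgene and 1903 to 3316 CPM with it. Among Tg-SwDI mice Thy1 was also higher in KO mice (log2 fold change 0.37, adjusted p = 0.00416), and the part of this difference in the values below was not tested. The microRNA gene itself was not analysed here. Neuron markers summed to 4837 to 5836 CPM and hippocampal neuron markers to 903 to 1104 CPM, and all 12 were detected. The library of KO Tg-SwDI replicate 8 stood apart: mitochondrial genes took 14.6% of its counts against 6.94% to 8.76% in the other 19, and its TMM scaling factor was 0.901 against 0.981 to 1.03. The mitochondrial share also moved with the group: the other 4 KO Tg-SwDI mice had 8.11% to 8.76% and the mice of the other groups at most 8.31%, and the part of this in the results was not tested. Results that rest on the library of KO Tg-SwDI replicate 8 are given with and without it. The 14 choroid plexus markers differed widely between mice, with summed levels of 70.1 to 4521 CPM in WT Non-Tg, 71.0 to 369 CPM in KO Non-Tg, 134 to 3898 CPM in WT Tg-SwDI and 141 to 4052 CPM in KO Tg-SwDI mice. A fit that also adjusts for the choroid plexus score of each mouse is quoted where it changes a call or moves a count by over 1.5 times. Over all genes it called 1217 in place of 3351 for the transgene in KO mice, 571 in place of 320 for KO against WT in Tg-SwDI mice and 31 in place of 98 for the interaction.

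The members were expressed at low to moderate levels. Per kilobase of exon, so that genes can be compared, the order of the mean levels in WT Non-Tg mice was Irf3 (4.36 ± 0.409 RPKM, CPM divided by exon length in kilobases, SD, n = 5), Irf2 (3.15 ± 0.356), Irf1 (1.93 ± 0.361), Irf5 (1.64 ± 0.236), Irf8 (0.979 ± 0.307) and Irf7 (0.713 ± 0.431). Irf1 and Irf5 differed there by less than the SD of Irf1, and Irf8 and Irf7 by less than the SD of either. In KO Tg-SwDI mice Irf3 was still first at 5.03 ± 0.687 RPKM, but Irf8 was second at 3.97 ± 0.796 RPKM, before Irf5 (3.68 ± 0.197), Irf2 (3.56 ± 0.338), Irf7 (2.84 ± 1.47) and Irf1 (2.47 ± 0.333). In that group Irf8, Irf5 and Irf2 differed by less than the SD of Irf8, and Irf2, Irf7 and Irf1 by less than the SD of Irf7. The exon length used joins all annotated exons of a gene, 7396 bases for Irf2, 7055 for Irf8 and 3442 for Irf3. The coding transcripts searched above have 2497, 2847 and 2031 bases in the same order. The order of the genes, Irf3 in first place included, therefore depends on the length used, and an order by transcript length was not computed. All values from here on are CPM scaled by TMM and are compared within a gene only.

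**Figure D1:**
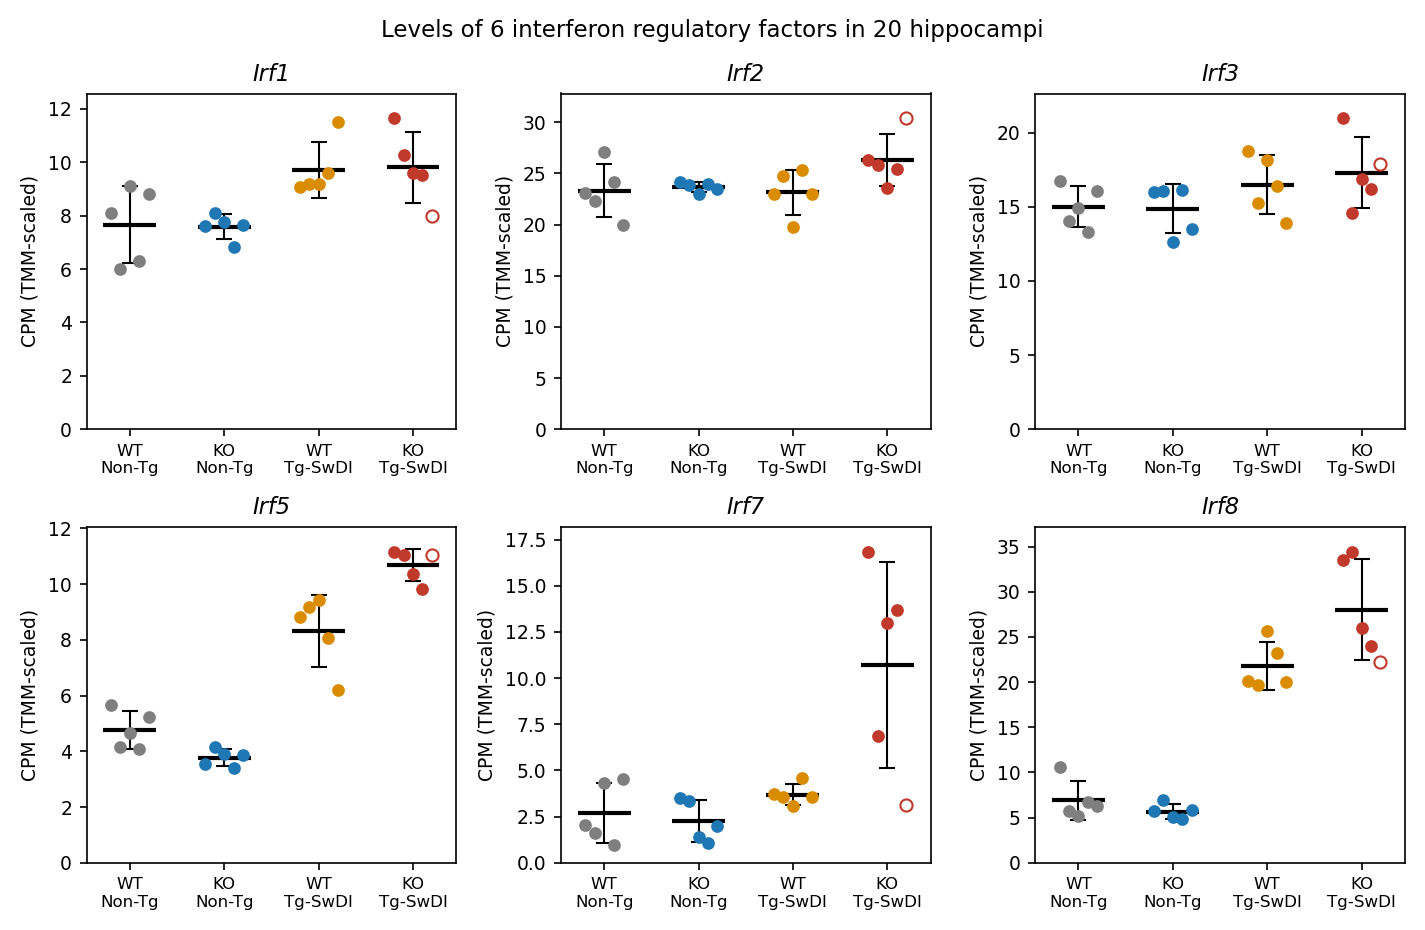
Levels of the 6 members in each mouse, in TMM-scaled CPM on axes that start at 0, by group, with the group mean (horizontal bar) and SD (error bars, n = 5) and KO Tg-SwDI replicate 8 as an open circle. Irf5 and Irf8 are separated between Non-Tg and Tg-SwDI mice, Irf7 is high in 4 of 5 KO Tg-SwDI mice and lowest of that group in replicate 8 at 3.14 CPM, and Irf1, Irf2 and Irf3 overlap between most groups.

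The response to the transgene in WT mice was tested first. Irf5 and Irf8 were higher in WT Tg-SwDI than in WT Non-Tg mice, and the other 4 members did not pass the test, so 2 of 6 were called where 4.41% of all genes were called in either direction and 3.94% higher. In KO mice 4 of 6 were higher with the transgene, namely Irf1, Irf5, Irf7 and Irf8, beside 12.5% of all genes called higher and 20.8% called in either direction. Those members are described here by role, beginning with the microglial factor.

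Irf8 had the largest estimate of the members for the transgene in both genotypes. In KO mice Irf7 was close to it (log2 fold change 2.25 against 2.31). Without KO Tg-SwDI replicate 8 the order was reversed there, with 2.48 for Irf7 and 2.38 for Irf8. Irf8 stood at 10.6, 5.70, 5.16, 6.74 and 6.30 CPM in WT Non-Tg mice (replicates 2, 3, 4, 6 and 7) and at 5.69, 6.92, 5.06, 4.84 and 5.80 CPM in KO Non-Tg mice (replicates 1, 2, 4, 7 and 8). In WT Tg-SwDI mice it stood at 20.2, 19.7, 25.7, 23.2 and 20.03 CPM (replicates 3, 4, 5, 6 and 7), and in KO Tg-SwDI mice at 33.5, 34.4, 25.9, 23.98 and 22.2 CPM (replicates 1, 2, 3, 5 and 8). The Tg-SwDI mice thus lay far above all Non-Tg mice, of which WT Non-Tg replicate 2 was the highest and stood apart from its own group, whereas KO and WT mice overlapped on either background. The means were 6.91 ± 2.17, 5.66 ± 0.811, 21.8 ± 2.63 and 28.01 ± 5.62 CPM in the order given. The transgene effect was a log2 fold change of 1.65 in WT mice (SE 0.17, adjusted p = 6.18e-07) and of 2.31 in KO mice (SE 0.17, adjusted p = 2.07e-09). Both calls held in all 10 alternatives and without any single mouse.

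Markers of microglia rose beside it. The 10 markers, which do not include Irf8, summed to 299 to 354 CPM in WT Non-Tg, 297 to 313 CPM in KO Non-Tg, 585 to 692 CPM in WT Tg-SwDI and 669 to 889 CPM in KO Tg-SwDI mice, and all 10 were called higher with the transgene in either genotype. Their median log2 fold change was 0.76 in WT and 1.15 in KO mice. Irf8 lay above all 10 markers in both comparisons. As a percentage of the marker sum Irf8 was 1.61 to 3 in WT Non-Tg and 1.59 to 2.26 in KO Non-Tg mice, and 2.98 to 3.72 in WT and 3.16 to 3.95 in KO Tg-SwDI mice. Irf5 gave 1.33 to 1.60, 1.12 to 1.36, 0.953 to 1.51 and 1.24 to 1.65 in the same order, so that the ranges of Irf5 overlapped in all 4 groups. The ranges of Irf8 overlapped between Non-Tg and Tg-SwDI mice only through WT Non-Tg replicate 2. Irf1, Irf2 and Irf3 had smaller log2 fold changes than every one of the 10 markers in both transgene comparisons. The part of the number of microglia in these differences was not tested.

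Irf5, the factor downstream of Toll-like receptors, stood at 5.67, 4.16, 4.65, 4.10 and 5.25 CPM in WT Non-Tg mice and at 3.54, 4.17, 3.91, 3.40 and 3.87 CPM in KO Non-Tg mice, with the mice in the order used for Irf8. In WT Tg-SwDI mice it stood at 8.82, 9.17, 9.42, 8.06 and 6.21 CPM and in KO Tg-SwDI mice at 11.2, 11.1, 10.4, 9.84 and 11.1 CPM. No Tg-SwDI mouse overlapped a Non-Tg mouse, and every KO Tg-SwDI mouse lay above every WT Tg-SwDI mouse, of which replicate 7 was the lowest. The means were 4.76 ± 0.685, 3.78 ± 0.307, 8.34 ± 1.29 and 10.7 ± 0.573 CPM. The transgene effect was a log2 fold change of 0.81 in WT mice (SE 0.11, adjusted p = 1.14e-05) and 1.50 in KO mice (SE 0.11, adjusted p = 1.31e-10), both called in all 10 alternatives and without any single mouse.

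Irf7, the amplifier of the interferon response, varied most among mice. It stood at 2.03, 1.64, 4.32, 0.949 and 4.53 CPM in WT Non-Tg mice and at 3.49, 3.36, 1.40, 1.06 and 1.98 CPM in KO Non-Tg mice, in the same order of mice. WT Tg-SwDI mice stood at 3.71, 3.55, 3.09, 4.59 and 3.54 CPM. KO Tg-SwDI mice stood at 16.8, 6.88, 12.99, 13.7 and 3.14 CPM, so that 4 of the 5 lay above every other mouse of the study and replicate 8 lay among the WT Tg-SwDI mice. The means were 2.69 ± 1.63, 2.26 ± 1.12, 3.69 ± 0.550 and 10.7 ± 5.56 CPM. With the transgene Irf7 was higher in KO mice (log2 fold change 2.25, SE 0.45, adjusted p = 0.00195), and in WT mice the difference was 0.45 with a 95% interval of -0.55 to 1.45 (adjusted p = 0.734).

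Choroid plexus markers moved with Irf7 in part of the mice. Among WT Non-Tg mice the order of the marker sums, 70.1, 182, 1989, 3308 and 4521 CPM in replicates 6, 3, 2, 4 and 7, was also the order of Irf7. In the KO Tg-SwDI group replicate 8 had the highest marker sum, 4052 CPM, and the lowest Irf7. Among KO Non-Tg mice replicate 1 had the lowest sum, 71.0 CPM, and the highest Irf7, 3.49 CPM. Replicate 2 of that group had the highest sum, 369 CPM, with Irf7 at 3.36 CPM. WT Tg-SwDI replicate 7 had a sum of 134 CPM with Irf7 at 3.54 CPM, and replicate 4 had 3629 CPM with Irf7 at 3.55 CPM. In the KO Non-Tg group all 5 mice were at or under 369 CPM, and so the marker sum differs between the KO Non-Tg and the KO Tg-SwDI group, where 4 of 5 mice were at 2283 CPM or more. Adjusted for the choroid plexus score, the log2 fold change of Irf7 with the transgene in KO mice was 1.71 (adjusted p = 0.0532), no longer past the threshold, and without KO Tg-SwDI replicate 8 it was 2.48 (adjusted p = 0.000247). The part of choroid plexus tissue in the level of Irf7 was not tested further.

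Irf1, the activator of interferon-gamma target genes, stood at 8.08, 6.00, 9.10, 6.29 and 8.82 CPM in WT Non-Tg, at 7.60, 8.10, 7.76, 6.81 and 7.64 CPM in KO Non-Tg, at 9.05, 9.17, 9.17, 9.61 and 11.5 CPM in WT Tg-SwDI and at 11.6, 10.3, 9.61, 9.53 and 7.98 CPM in KO Tg-SwDI mice, again in the order of mice used for Irf8. The groups overlapped in every comparison, in KO mice through replicate 8 with its 7.98 CPM. The transgene effect was a log2 fold change of 0.37 in KO mice (SE 0.11, adjusted p = 0.0229) and 0.34 in WT mice (SE 0.11, adjusted p = 0.107), and these were not shown to differ (difference 0.03, 95% interval -0.30 to 0.37). The call in KO mice ended without KO Non-Tg replicate 7 (adjusted p = 0.0632) and without KO Tg-SwDI replicate 1 (adjusted p = 0.0703). It also ended when the choroid plexus score was adjusted for (adjusted p = 0.176) and with the trend on GC content and length removed (adjusted p = 0.102), and it was stronger without replicate 8 (log2 fold change 0.44, adjusted p = 0.00688).

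Irf2 and Irf3 differed least. Irf2, which mostly represses the sites that Irf1 activates, ranged over all 20 mice from 19.7 to 30.4 CPM, with means of 23.3 ± 2.63, 23.7 ± 0.469, 23.1 ± 2.18 and 26.3 ± 2.50 CPM, and its highest value was that of KO Tg-SwDI replicate 8. Irf3, the factor that is present before stimulation, ranged from 12.6 to 20.96 CPM with means of 15.02 ± 1.41, 14.9 ± 1.66, 16.5 ± 2.01 and 17.3 ± 2.37 CPM. The transgene effect in KO mice was a log2 fold change of 0.15 for Irf2 (95% interval -0.01 to 0.31, adjusted p = 0.170) and 0.22 for Irf3 (95% interval 0.02 to 0.42, adjusted p = 0.118). In WT mice it was -0.01 for Irf2 (95% interval -0.17 to 0.15) and 0.14 for Irf3 (95% interval -0.07 to 0.34). Without KO Tg-SwDI replicate 2, Irf3 passed the threshold in KO mice (log2 fold change 0.29, adjusted p = 0.0391).

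The loss of miR-34a was compared next, within Tg-SwDI mice, which is the comparison the study was built around. By edgeR's quasi-likelihood test 0 of the 6 members passed the threshold, beside 1.99% of all genes. At an unadjusted p under 0.05 the count was 4 of 6, beside 19% of all genes. DESeq2 and edgeR's exactTest called 2 each, Irf5 and Irf7, beside 4.55% and 3.51% of all genes. Irf7 had the largest difference, a log2 fold change of 1.54 (2.91-fold, SE 0.43, 95% interval 0.63 to 2.45, adjusted p = 0.0712), and 4 of 5 KO mice lay above all WT mice. Without replicate 8 the difference was 1.77 and past the threshold (adjusted p = 0.0218), as it was without KO Tg-SwDI replicate 2 (1.67, adjusted p = 0.0456). Adjusted for the choroid plexus score it was 1.57 (adjusted p = 0.0414). Over the 10 alternatives its adjusted p ran from 0.0133 to 0.466.

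Irf5 had a log2 fold change of 0.36 in the same comparison (1.28-fold, SE 0.11, 95% interval 0.14 to 0.58, adjusted p = 0.0694), and the groups did not overlap. The share of all genes whose groups separate is not given here, so counts of mice above all others are descriptions. DESeq2 gave it an adjusted p of 0.0313, the exactTest 0.0469 and the covariate fit 0.0269, while the alternatives ran up to 0.553 and leaving out single mice gave 0.0620 to 0.185. Irf8 gave 0.37 (SE 0.15, adjusted p = 0.200) with 3 of 5 KO mice above all WT mice, and Irf2 gave 0.18 (SE 0.08, adjusted p = 0.192) with 4 of 5. Irf3 (0.07, 95% interval -0.13 to 0.27) and Irf1 (0.02, 95% interval -0.22 to 0.25) were near 0 within intervals that hold changes of either sign. The microglia markers had a median log2 fold change of 0.27, and 3 of the 10 were called higher. Irf7 lay above all 10 of them, Irf5 and Irf8 above 8, Irf2 above 1, and Irf1 and Irf3 below all.

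Without the transgene the loss of miR-34a moved no member past the threshold: the test called 0 of 6 members, as did DESeq2 and the exactTest, beside 0% of all genes by the first test, 0.0435% by DESeq2 and 0.0248% by the exactTest. At an unadjusted p under 0.05 the count was 1 of 6, beside 8.08% of all genes. That member was Irf5, which was lower in KO mice by the estimate (log2 fold change -0.34, SE 0.12, adjusted p = 0.518) with overlapping groups. Irf8 (-0.29, 95% interval -0.66 to 0.09) and Irf7 (-0.26, 95% interval -1.31 to 0.79) also had negative estimates. Irf1, Irf2 and Irf3 lay between -0.02 and 0.02. The interval of Irf7 was the widest of the 6.

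**Figure D2:**
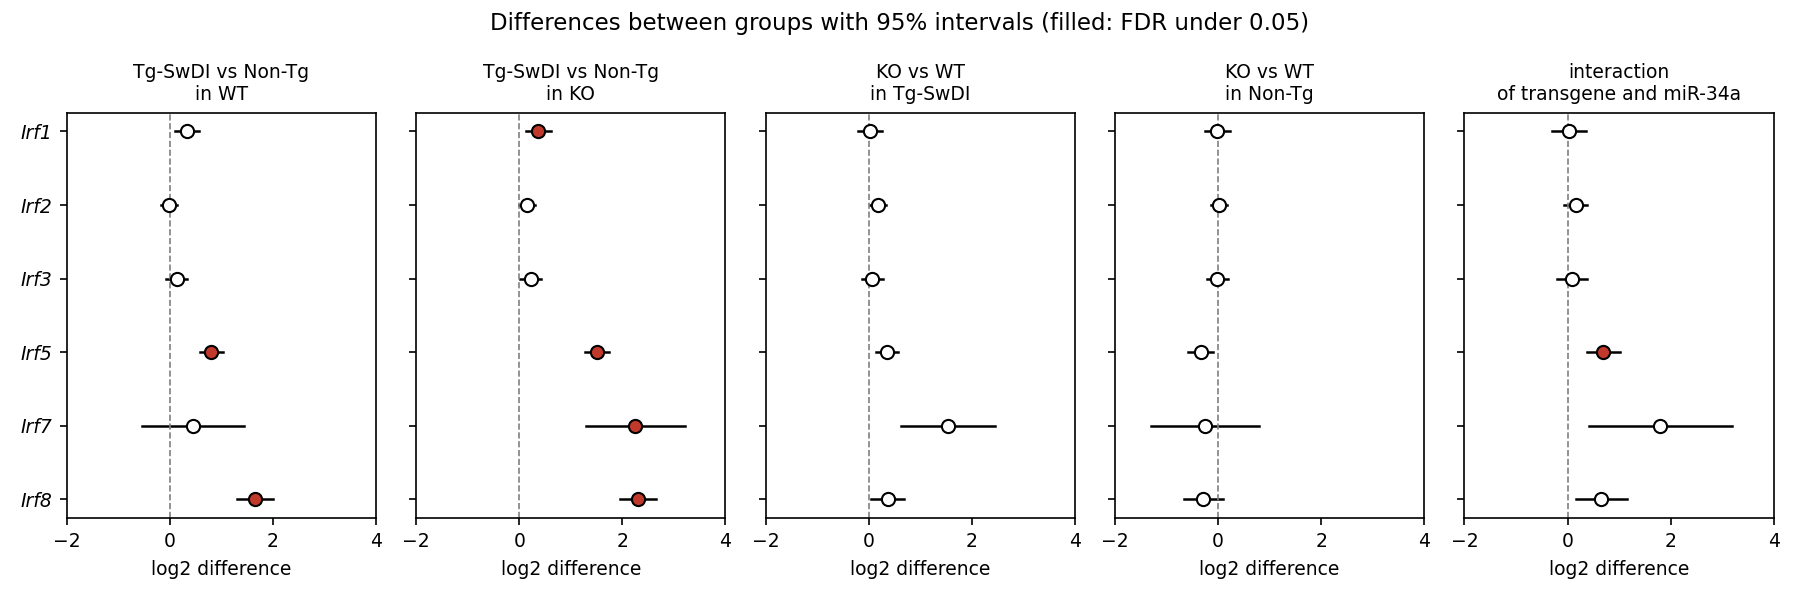
Log2 differences of the 6 members (points) with 95% intervals (lines) in 5 comparisons on the same axis, filled where the FDR is under 0.05. Irf5 and Irf8 are filled for the transgene in WT mice, Irf1, Irf5, Irf7 and Irf8 in KO mice, Irf5 alone for the interaction, and none for KO against WT on either background.

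The interaction asks whether the KO effect depended on the transgene. It was called for 1 of 6 members, Irf5, beside 0.608% of all genes. Irf5 had an interaction of 0.70 on the log2 scale (SE 0.16, 95% interval 0.37 to 1.02, adjusted p = 0.0402), made of a KO effect of 0.36 with the transgene and of -0.34 without it. The call is close to the threshold and ended without any one of 11 mice, with adjusted p of 0.0521 to 0.0985. Those were WT Non-Tg replicates 2, 4 and 7, KO Non-Tg replicates 1, 4, 7 and 8, WT Tg-SwDI replicates 3, 6 and 7 and KO Tg-SwDI replicate 3, and the estimate without each lay between 0.61 and 0.72. Without KO Tg-SwDI replicate 8 the call held (0.69, adjusted p = 0.0350). It ended when adjusted for the choroid plexus score (0.59, adjusted p = 0.104), with library size alone (0.66, adjusted p = 0.0680) and with the trend on GC content and length removed (0.56, adjusted p = 0.117). The interaction was larger but less certain for Irf7 (1.80, 95% interval 0.41 to 3.19, adjusted p = 0.178), and it was 0.65 for Irf8 (95% interval 0.16 to 1.15, adjusted p = 0.169). Irf1, Irf2 and Irf3 gave 0.03, 0.16 and 0.08. For comparison, the microglia markers had a median interaction of 0.35, which all of Irf5, Irf7 and Irf8 exceeded, as they did each of the 10 markers.

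Irf4 and Irf9 were read beside the members. Irf9, a partner of STAT2 in a complex that binds ISRE sites, had means of 12.7 ± 2.13, 10.9 ± 2.02, 14.4 ± 1.31 and 23.8 ± 6.17 CPM and was called between KO and WT Tg-SwDI mice (log2 fold change 0.73, adjusted p = 0.0267), but not without WT Tg-SwDI replicate 3, 5 or 7 or KO Tg-SwDI replicate 3. Irf4, at 0.143 to 0.935 CPM per mouse, was near the lower end of what was tested. Irf4 passed the threshold for the transgene in KO mice alone (log2 fold change 1.04, adjusted p = 0.0395) on 3 to 17 counts per mouse. Irf4 and Irf9 made 2 calls there, and 1 was left without KO Non-Tg replicate 1, 4, 7 or 8 or KO Tg-SwDI replicate 5 or 8, with DESeq2, or when adjusted for the choroid plexus score.

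The genes around the members were taken from lists of sensors, kinases, partners and targets. Earlier results of these data were known when the lists were set, so their counts are descriptions and not independent support. Interferon genes themselves were hardly seen: 9 of them (Ifnb1, 5 Ifna genes, Ifnk, Ifne and Ifng) had 0 to 4 counts in sum per mouse and none could be tested. Their expression was not measurable at this depth, which does not show that it is absent. All list members are counted below, with the median of the list beside that of all genes tested, which lay between -0.01 and 0.01 in each comparison. The shares of all genes called higher, to be read beside the list counts, were 3.94% for the transgene in WT mice, 12.5% for the transgene in KO mice, 1.48% for KO against WT in Tg-SwDI mice and 0.428% for the interaction.

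Of the 17 sensors and adaptors that lead to IRFs, 13 were higher with the transgene in KO mice, beside 12.5% of all genes, and 5 in WT mice, beside 3.94% (medians 0.63 and 0.20). Tlr7, the endosomal receptor of single-stranded RNA, was higher in both (1.50 in WT, adjusted p = 1.57e-07, and 1.92 in KO, adjusted p = 6.18e-10), and Tlr9, the receptor of unmethylated DNA, rose by 0.69 (adjusted p = 0.0114) and 1.48 (adjusted p = 1.91e-07). The gene for TASL, the adaptor of Irf5, listed as 5430427O19Rik, rose by 1.35 and 1.59 (adjusted p = 0.00376 and 0.000104). Tmem173, which encodes STING, rose by 0.50 and 0.95 (adjusted p = 0.0439 and 2.02e-05). In KO against WT Tg-SwDI mice 4 were higher (median 0.25), namely the double-stranded RNA sensors Tlr3 (0.33, adjusted p = 0.0181) and Ifih1 (0.66, adjusted p = 0.0316), the RNA sensor Ddx58 (0.71, adjusted p = 0.0496) and the kinase Irak1 (0.21, adjusted p = 0.0262). The 10 alternatives called 0 to 5, with 5 by DESeq2, by the exactTest and when adjusted for the choroid plexus score, 1 with the compared groups alone and 0 with library size alone or the replicate block. The count was also 4 without KO Tg-SwDI replicate 8, but 2 without WT Tg-SwDI replicate 3 or 4 or KO Tg-SwDI replicate 3, and 0 without WT Tg-SwDI replicate 5 or 7. For the transgene in WT mice it fell from 5 to 2 without WT Non-Tg replicate 3 or 6 and to 3 without KO Non-Tg replicate 1, 4, 7 or 8 or WT Tg-SwDI replicate 4, 5 or 6, and it was 3 when adjusted for the choroid plexus score.

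The kinases that phosphorylate IRFs moved little. Of Tbk1, Ikbke, Chuk and Ikbkb only Ikbke passed the test, with the transgene in KO mice (0.58, adjusted p = 0.0337), and this call ended without KO Non-Tg replicate 2, 7 or 8 or KO Tg-SwDI replicate 1, 3 or 8. The alternatives called 0 to 2 kinases there. In KO against WT Tg-SwDI mice edgeR's quasi-likelihood test called 0 of the 4, with 1 at an unadjusted p under 0.05, and Tbk1 gave -0.11 (adjusted p = 0.343). DESeq2 and the exactTest called none of the kinases there either.

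Of 15 partners and regulators, 14 could be tested, and 6 were higher with the transgene in KO mice (median 0.33). Spi1, which encodes the Irf8 partner PU.1, was higher with the transgene in both genotypes (0.91 in WT, adjusted p = 0.00033, and 1.66 in KO, adjusted p = 1.55e-08). Usp18, a brake on interferon receptor signalling, rose by 2.10 (adjusted p = 0.00423), Nlrc5 by 1.77 (adjusted p = 0.000489) and Trim21 by 0.94 (adjusted p = 0.00113) in KO mice. In WT mice Spi1 was the 1 gene called, and 2 were called without WT Non-Tg replicate 7. Stat2 was the 1 gene of the list called between KO and WT Tg-SwDI mice (0.41, adjusted p = 0.0232), where 3 were called without KO Tg-SwDI replicate 8, 2 without KO Tg-SwDI replicate 2 or WT Non-Tg replicate 2, and 0 without WT Tg-SwDI replicate 5, 6 or 7. The alternatives called 0 to 2 of the list there, with 2 when adjusted for the choroid plexus score, and 4 to 8 for the transgene in KO mice. The coactivators Crebbp and Ep300 and the corepressors Irf2bp1, Irf2bp2 and Irf2bpl were called in none of the 5 comparisons by edgeR's quasi-likelihood test, with log2 fold changes of -0.13 to 0.17.

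Of the 12 listed targets of Irf3 and Irf7, 11 were higher with the transgene in KO mice and 0 in WT mice, with medians of 1.84 and 0.37. By edgeR 1 of the 12 had an unadjusted p under 0.05 in WT mice, and the alternatives, DESeq2 and the exactTest among them, called 0 there. Cxcl10, a chemokine, rose by 3.25 in KO mice (adjusted p = 0.00113), the antiviral GTPase Mx1 by 2.91 (adjusted p = 1.05e-05), the nucleic acid sensor Zbp1 by 2.71 (adjusted p = 0.000154), the chemokine Ccl5 by 1.98 (adjusted p = 0.00317) and Oasl1, which restrains the translation of Irf7, by 1.87 (adjusted p = 0.0012). Mx1, the Ifit genes and Oasl1 belong to gene families, and how reads that match several genes were counted is not given. How alike the family genes are in sequence was not examined. Adjusted for the choroid plexus score, 5 of the 12 were called there. Between KO and WT Tg-SwDI mice all 12 had positive estimates (median 1.30) and 3 were called, Mx1 (1.77, adjusted p = 0.0135), Rsad2 (1.30, adjusted p = 0.0409) and Ifit2 (0.56, adjusted p = 0.0113). This count was 9 without replicate 8 and 6 without KO Tg-SwDI replicate 2. It was 8 with DESeq2 and with the exactTest, 6 when adjusted for the choroid plexus score, and 0 at the lowest over the alternatives. The summed level of the list was 116, 69.9, 110, 114 and 29.7 CPM in KO Tg-SwDI replicates 1, 2, 3, 5 and 8, against 34.6 to 42.7 CPM in WT Tg-SwDI mice, so the order of these sums separates replicate 8 from the other KO mice as Irf7 itself does.

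Of 13 tested targets of Irf1 and Irf2, 11 were higher with the transgene in KO mice (median 1.31) and 3 in WT mice (median 0.36), and 3 were called higher between KO and WT Tg-SwDI mice (median 0.63). The 3 were B2m (0.76, adjusted p = 0.0106), the light chain of class I molecules, and the immunoproteasome subunits Psmb8 (0.72, adjusted p = 0.0401) and Psmb9 (0.87, adjusted p = 0.0411). B2m was also called for the interaction (1.06, adjusted p = 0.0199), as the 1 gene of the list. That count was 0 without WT Non-Tg replicate 2, KO Non-Tg replicate 7 or WT Tg-SwDI replicate 7, 2 without KO Tg-SwDI replicate 2, 5 without KO Tg-SwDI replicate 8 and 0 to 4 over the 8 alternatives. The count between KO and WT Tg-SwDI mice was 5 without KO Tg-SwDI replicate 8 and 1 without KO Tg-SwDI replicate 1 or 3 or any of the 5 WT Tg-SwDI mice. The alternatives called 0 to 5, with 5 by DESeq2 and by the exactTest, 1 with library size alone or with the trend on GC content and length removed, and 0 with the replicate block. The summed level of the list was 553, 404, 540, 475 and 604 CPM in KO Tg-SwDI replicates 1, 2, 3, 5 and 8. Replicate 8 was thus the highest here, unlike for the targets of Irf3 and Irf7.

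The cytokine targets of Irf5 were mostly too low: Il6, Tnf, Il12b and Il1b had 32, 52, 8 and 127 counts over all 20 mice and were not tested. The chemokines Ccl3 and Ccl4 were higher with the transgene, Ccl3 by 3.80 in WT and 5.46 in KO mice (adjusted p = 2.81e-08 and 7.23e-11) and Ccl4 by 2.01 and 4.50 (adjusted p = 0.00692 and 3.53e-07), and Il12a was not called. These changes start near the floor. All 7 listed targets summed to 1.59 to 2.46 CPM in WT Non-Tg and 1.195 to 1.83 CPM in KO Non-Tg mice. Ccl3 was the 1 gene called between KO and WT Tg-SwDI mice (0.93, adjusted p = 0.0342), a call that ended without KO Tg-SwDI replicate 8 or WT Tg-SwDI replicate 3, 5, 6 or 7, and the alternatives called 0 to 1 gene of the list. Of 9 tested microglial genes that depend on Irf8, 8 were higher with the transgene in WT mice (median 0.84) and all 9 in KO mice (median 1.39). Tlr2 rose by 2.11 and 3.29 (adjusted p = 1.35e-07 and 9.26e-11), Cybb, the oxidase subunit, by 1.93 and 2.82 (adjusted p = 9.51e-05 and 2.99e-07) and the protease Ctss by 1.42 and 2.18 (adjusted p = 1.14e-06 and 1.66e-09). Csf1r, the receptor microglia need to survive, was the 1 gene of this list called in KO against WT Tg-SwDI mice (0.56, adjusted p = 0.000673) and for the interaction (0.56, adjusted p = 0.0199), and 2 were called between KO and WT without KO Tg-SwDI replicate 8, KO Tg-SwDI replicate 5 or WT Non-Tg replicate 2. For the interaction the count was 0 without KO Non-Tg replicate 7, 2 without WT Non-Tg replicate 6 or KO Tg-SwDI replicate 2 or 5, and 3 without WT Non-Tg replicate 3 or KO Tg-SwDI replicate 8. The alternatives called 1 to 2 genes between KO and WT and 0 to 3 for the interaction. The 10 microglia markers were all called higher with the transgene in either genotype, with medians of 0.76 in WT and 1.15 in KO mice. Between KO and WT Tg-SwDI mice the median was 0.30 for the Irf8 list and 0.27 for the markers. The part of the number of microglia in the Irf8 list was not tested. P2ry12 is in both the Irf8 list and the microglia markers. Usp18 is in both the partners and the targets of Irf3 and Irf7, and Nlrc5 in both the partners and the targets of Irf1 and Irf2. Their calls therefore count in both lists.

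In Non-Tg mice no gene of the kinase, partner, sensor or target lists was called between KO and WT by edgeR's quasi-likelihood test, by DESeq2 or by the exactTest. At an unadjusted p under 0.05 there were 0 kinases, 0 partners, 1 sensor, 0 targets of Irf3 and Irf7, 1 target of Irf1 and Irf2, 1 target of Irf5 and 2 genes that depend on Irf8. The medians of the 3 target lists there were -0.22 for Irf3 and Irf7, -0.18 for Irf1 and Irf2 and -0.73 for Irf5. They are over 12, 13 and 3 tested genes, and the 3 of Irf5 ran from -1.52 to 0.01.

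**Figure D3:**
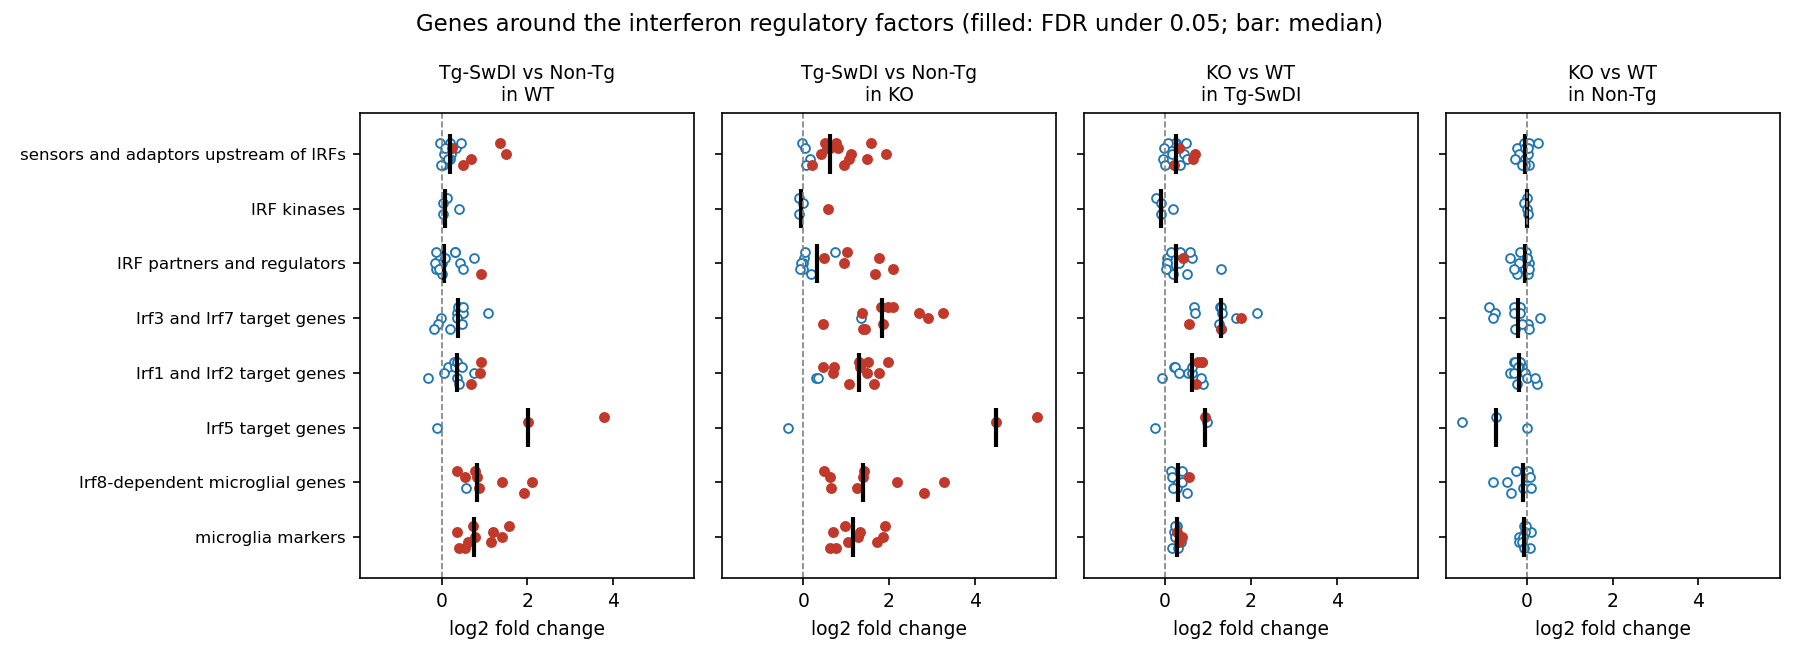
Log2 fold changes of the tested genes of 8 lists in 4 comparisons on the same axis, 1 point per gene, filled where the FDR is under 0.05, with the median of the list as a vertical bar. The targets of Irf3 and Irf7 have no filled point for the transgene in WT mice and 11 filled points in KO mice, and KO against WT in Non-Tg mice has none in any list.

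Markers of other cell types were counted as well. Of 7 astrocyte markers 4 were called higher with the transgene in WT mice and 4 in KO mice (medians 0.23 and 0.25), and the sum was 3995 to 4461 CPM in Non-Tg and 5102 to 6887 CPM in Tg-SwDI mice, so it too moved with Irf5 and Irf8. Of 7 oligodendrocyte markers 1 was called higher in WT and 5 in KO mice (medians 0.07 and 0.26), with sums of 4609 to 5507 CPM in KO Non-Tg and 5653 to 7484 CPM in KO Tg-SwDI mice. Between KO and WT Tg-SwDI mice 1 astrocyte marker and 1 of 6 endothelial markers were called higher. The part of these cells in the members' levels was not tested. Border macrophage markers summed to 7.41 to 20.1 CPM over the 20 mice, and edgeR's quasi-likelihood test called 0 of the 6 in each of the 5 comparisons, with 0 to 2 at an unadjusted p under 0.05. DESeq2 and the exactTest were not summarised for this list. Of 10 markers of lymphocytes and dendritic cells 7 were too low to be tested, with 14 to 96 counts each over all mice. The sum of this list was 23.6 to 32.4 CPM in Non-Tg and 38.2 to 63.9 CPM in Tg-SwDI mice. Its 3 tested genes, named after their values were seen, were Siglech, which is also one of the microglia markers (0.61 in WT and 1.04 in KO mice, both called), Bst2, which is known as interferon-induced (0.68, not called, and 2.43, called), and Flt3 (0.07 and -0.30, neither called).

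Within the groups, the members were compared by the deviation of each mouse from its group mean in log2 CPM. Over the 15 pairs the median Pearson's r was 0.143, from -0.273 to 0.722. Irf1 and Irf7 had the highest value (r = 0.722, permutation p = 0.00306, adjusted over the 15 pairs 0.0459; Spearman's rho = 0.632, permutation p = 0.0154, adjusted 0.232; n = 20). Without the 2 mice farthest from the median in Irf1 it was 0.658, and without KO Tg-SwDI replicate 8 it was 0.649. Irf5 and Irf8 gave r = 0.491 (rho = 0.426, permutation p = 0.0321 and 0.0757, adjusted 0.169 and 0.378) and Irf3 and Irf5 gave r = 0.489 (rho = 0.490, permutation p = 0.0339 and 0.0417, adjusted 0.169 and 0.313). Irf7 and Irf8, which both rose with the transgene in KO mice, gave r = 0.138 (permutation p = 0.650, rho = 0.189, permutation p = 0.506). Mice were shuffled within groups for these two-sided tests. The plan was to describe the correlations without p-values, and the tests were added to it.

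The genes whose within-group deviations were most like those of each member were picked among 14405 genes, as a description without a test. For Irf7 they were Ifi35 (r = 0.945), the RNA sensor Ifih1 (r = 0.943) and Oasl2 (r = 0.936), all interferon-stimulated genes. For Irf8 they were the fractalkine receptor Cx3cr1 (r = 0.870), the lectin Clec7a (r = 0.810) and Lat2 (r = 0.802), and for Irf5 they were Apoe (r = 0.803), Rac2 (r = 0.790) and Ctnnal1 (r = 0.771). Irf1 was nearest to Parp9 (r = 0.832), Trim30a (r = 0.823) and Phf11b (r = 0.810), also interferon-stimulated genes. Irf3 was nearest to Col5a2 (r = 0.888) and Mroh7 (r = 0.848), and Irf2 to Gm16861 (r = 0.787), Rhog (r = 0.766) and Cdr2l (r = 0.741). Each value is over 20 mice, which share the scaling of their libraries.

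**Figure D4:**
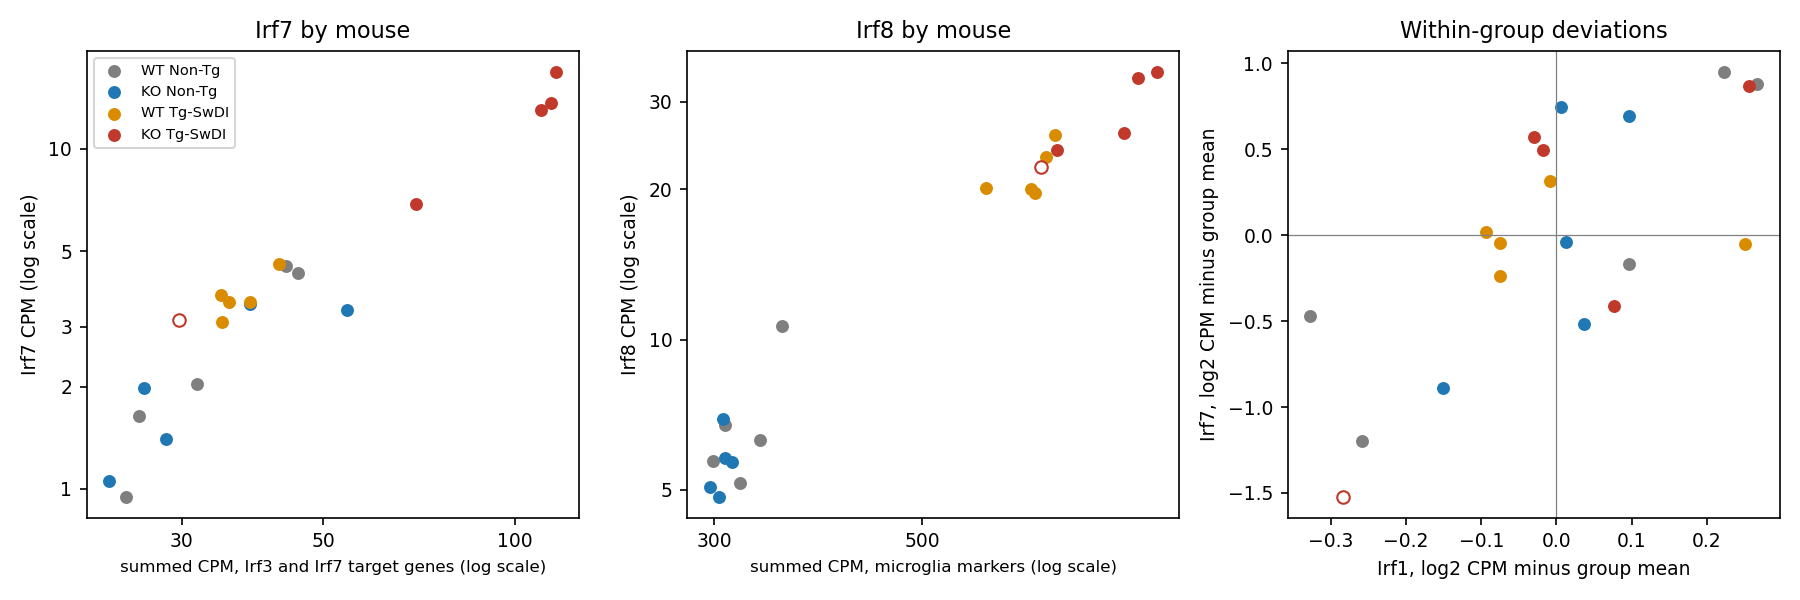
Each point is a mouse, coloured by group, with KO Tg-SwDI replicate 8 open. Left, Irf7 against the summed targets of Irf3 and Irf7 (CPM, log axes), where 4 KO Tg-SwDI mice lie above all others and replicate 8 lies at 29.7 and 3.14 CPM. Middle, Irf8 against the summed microglia markers (CPM, log axes), with Non-Tg mice at or below 354 CPM and Tg-SwDI mice at or above 585 CPM of markers. Right, deviations from the group mean in log2 CPM of Irf1 and Irf7 (r = 0.722).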

How the data were processed

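RNA-seq libraries from the left hippocampus of 20 mice were used. The authors aligned reads of stranded mRNA libraries to mm10 with STAR, assigned them to ENSEMBL genes with featureCounts and deposited the raw counts, which are not normalized. Versions, strand setting and handling of reads matching several genes are not given in the sources used here. Groups came from the labels, and p-values measure the spread between single mice. Counts were tested with edgeR 4.0.16 (R 4.3.3) in 1 quasi-likelihood fit of 4 group means with TMM factors, robust dispersions and 16 residual degrees of freedom, after filterByExpr (minimum count 10, minimum total 15). P-values were adjusted by the Benjamini-Hochberg method over 16107 genes, and a gene was called at an FDR under 0.05. Totals of 19549622 to 21066868 counts per mouse limit the precision of low genes. On data simulated from these counts, with 16000 genes tested, KO against WT in Tg-SwDI mice gave 87 of 100 genes changed by a log2 of 1, 72 of 100 changed by 0.5 and 4 unchanged genes. The simulation used a common mean per gene for all mice, held no outlying library and no choroid plexus differences, and changed genes of any level. Its shares therefore need not hold for a low and variable gene such as Irf7.

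RPKM used exonic lengths of GENCODE M21, to which 99.5% of identifiers matched, and promoter windows and the microRNA came from RefSeq (GRCm38.p6). Log2 CPM used a prior count of 2, and correlations 100000 shuffles of mice within groups. Genes named were the 6 members, Irf4 and Irf9, up to 6 called genes per list by size of change, and the 3 most alike genes per member with a mean of at least 1 CPM. Results of some items named by this rule are not reported here. Genes that make up a count of 5 or fewer, kinases and coregulators that were not called, and untested cytokines were named after their values were seen. Members and lists were chosen with earlier results of these data known. Alternatives were DESeq2 1.42.0, edgeR's exactTest, RLE factors, library size alone, no filter, a mean CPM of at least 1, the compared groups alone, the replicate number as a block, the choroid plexus score as a covariate and each mouse left out, and, added after seeing the data, a fit with the dependence of each library on GC content and gene length taken out. Correlations were repeated on uncentred values and with a prior count of 0.5, and mean levels on library size alone.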

Additional observations from a re-analysis of the deposited data

Results flagged for a closer look

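Irf1 stood at 11.5 CPM in WT Tg-SwDI replicate 7, with the other 4 mice of its group at 9.05 to 9.61 CPM, and Irf8 stood at 10.6 CPM in WT Non-Tg replicate 2, with the other 4 mice at 5.16 to 6.74 CPM. In both cases the gap to the nearest mouse was more than 0.71 of the range of the group, Dixon's 95% critical value for 5 samples. In all 24 groups of a member were examined, and chance marks about 1 in 20. WT Tg-SwDI replicate 7 also had the lowest Irf5 of its group and the lowest choroid plexus marker sum, 134 CPM, and WT Non-Tg replicate 2 had the highest microglia marker sum of its group, 354 CPM. The part of these values in the outlying levels was not tested.

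The effect of miR-34a loss on Irf5 differed between Tg-SwDI and Non-Tg mice, by an interaction of 0.70 on the log2 scale (adjusted p = 0.0402 by edgeR), with 5 of 5 KO mice above all WT mice in the Tg-SwDI groups and a negative estimate with overlapping groups in the Non-Tg mice. The call held in 4 of 8 alternatives and in 9 of 20 fits without a single mouse. The share of all genes with every KO mouse above every WT mouse in the Tg-SwDI groups is not given here.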

How the results depend on the processing

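The 6 members gave 30 log2 fold changes over the 5 comparisons. The transgene effects on Irf5 and Irf8 were called in all 10 alternatives and without any mouse. Between KO and WT Tg-SwDI mice the number of members called was 0, but 2 with DESeq2, the exactTest and the choroid plexus covariate, and 0 to 1 without single mice. With the transgene in KO mice it was 4, but 2 with the choroid plexus covariate and 3 to 5 without single mice. The interaction was called for 1 member, but for 0 with library size alone, the replicate block, the choroid plexus covariate and GC content and length, and for 0 to 1 without single mice. The median r of 15 pairs was 0.143, but 0.554 with group means left in.

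Signs changed only for estimates that were not called. For KO against WT in Tg-SwDI mice, Irf1 was -0.023 with library size alone, -0.0069 with the replicate block and -0.031 with GC and length, and Irf3 was -0.052 with the replicate block and -0.0073 with GC and length. For the transgene in WT mice Irf2 was 0.019 with the replicate block. For KO against WT in Non-Tg mice the covariate gave Irf1 0.024, Irf3 0.11 and Irf7 0.21, and GC and length gave Irf1 0.027 and Irf3 0.039. For the interaction the covariate gave Irf1 -0.0045 and Irf3 -0.025, and GC and length gave Irf1 -0.057 and Irf3 -0.046. Without single mice, KO against WT in Tg-SwDI mice ranged from -0.051 to 0.087 for Irf1 and -0.0071 to 0.13 for Irf3, and in Non-Tg mice from -0.091 to 0.054 for Irf1, -0.029 to 0.084 for Irf2, -0.053 to 0.039 for Irf3 and -0.47 to 0.0080 for Irf7. Irf2 with the transgene in WT mice ranged from -0.062 to 0.050 and the interaction of Irf1 from -0.036 to 0.11. The cause was not tested.

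No pairing of the mice by replicate number was seen, which does not exclude one. Over 16 same-numbered pairs the deviations correlated by -0.488 to 0.244, with 3 above 0.1. The median was -0.0398, and 0.0175 for other pairs. With the replicate block the interaction of Irf5 was 0.65 (adjusted p = 0.106). All genes called between KO and WT Tg-SwDI mice numbered 320, with 8 to 733 under the alternatives, and 98 for the interaction, with 21 to 482. The interferon genes and most cytokine genes had too few counts to be tested.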
